A study of Homo sapiens with 6 samples.

Results

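The interferon system was followed through RNA sequencing in the human melanoma line A-375, whose cells carried a guide that served as control or one that targets SEPHS2, the enzyme that makes selenophosphate for selenocysteine. Its 52 genes were a named list of 9 nucleic acid sensors and their adaptors, 11 receptor and transcription factor genes and 32 antiviral effectors. All 52 were found by symbol among the 21631 gene symbols of the count table. There were 3 libraries of each group, named sgCTRL and sgSEPHS2 in the labels, all of the same line, with no cytokine, virus or drug named for either. The labels give neither the number of guides nor the number of founding clones, so a difference in founding cells cannot be told apart from one that follows the guide, and p-values cover only how these libraries vary, which may be technical variation. The design asks how expression differs between control and SEPHS2 knockout cells. In bulk RNA, fewer cells that express a gene and less RNA per cell cannot be told apart.

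Cells detect foreign or misplaced nucleic acid with sensors that include cGAS for DNA and RIG-I, MDA5 and TLR3 for RNA, which act through the adaptors STING, MAVS and TRIF to activate transcription factors of the IRF family and to induce type I interferon. Secreted interferon binds its receptor and, through JAK kinases, activates a complex that holds STAT2 and IRF9 and binds the interferon-stimulated response element (ISRE) in the promoters of antiviral effector genes. Interferon gamma uses a separate receptor. Melanoma cell lines often keep a low, cell-intrinsic level of this programme, and loss of cGAS or STING expression is known in melanoma.

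Depth was 34606145 to 43405579 counted reads per library. Of 21631 genes, 16910 passed the filter on low counts and were tested with edgeR, and 7673 of these (45.4%) passed an adjusted p under 0.05, 22% higher and 23.4% lower in the sgSEPHS2 group. The targeted mRNA was called higher in the sgSEPHS2 group: SEPHS2 stood at 158, 152 and 157 CPM in the control libraries and 169.9, 177 and 172 CPM in the libraries labelled knockout (log2 change 0.15 ± 0.041 SE, edgeR adjusted p = 0.00401). A gene count does not show whether a reading frame was cut, so the sgSEPHS2 libraries, which the series' design text describes as knockout, are called the libraries labelled knockout. Melanoma markers were present in part, with 2 values as group means. SOX10 (619 and 569 CPM, -0.12 on the log2 scale, edgeR adjusted p = 0.0164) and MITF (23.5 and 18.5 CPM, -0.35, edgeR adjusted p = 0.000124) were called lower. VIM was called higher (1377 and 1619 CPM, 0.23, edgeR adjusted p = 0.000111), and S100B was not called (33.9 and 33.1 CPM). The pigment genes PMEL and MLANA were near 1 CPM and TYR had no read in any control library. Immune markers summed over 5 genes came to 3.49 to 4.51 CPM in control libraries and 6.66 to 7.2 CPM in the libraries labelled knockout, most of it LYZ (3.28 and 6.7 CPM as group means), with PTPRC at 0 to 12 reads per library and CD14, CD68, CD79A and PTPRC all lower in mean in the second group. The keratinocyte gene KRT14 rose from a low level (0.317 and 1.42 CPM as group means, log2 fold change 2.14, edgeR adjusted p = 3.26e-05). Fibroblast markers summed over 3 genes came to 13.5 to 16.4 CPM and 16.4 to 19.8 CPM, and LUM among them rose (4.13 and 7 CPM as group means, log2 fold change 0.76, edgeR adjusted p = 2.16e-05). Endothelial markers summed over 3 genes came to 6.49 to 7.99 CPM and 5.65 to 6.83 CPM, with CDH5 near 0. The part of these differences in the interferon results was not tested.

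The interferon genes did not move as a block. Of the 50 members tested, 12 were higher and 16 lower, and 22 did not pass. That is 56% called, beside 45.4% of all genes tested, with 24% higher (22% of all genes) and 32% lower (23.4% of all genes). Their median log2 fold change was -0.049, beside 0.0051 over all genes tested. Most called changes were small, among members as among all genes. At least 2-fold lower were 3 of the 50 members (IFITM1, BST2 and GBP2), beside 5.67% of all genes tested. At least 2-fold higher was 1 (HERC5), beside 1.25%. That leaves 24 of the 28 called members under 2-fold. Of all 7673 called genes, 959 were at least 2-fold lower and 211 at least 2-fold higher. Groups did not overlap in CPM for 35 of the 50, beside 52.1% of all genes tested. By class, 3 sensors rose and 2 fell of 8 tested, 1 signalling gene rose and 6 fell of 11, and 8 effectors rose and 8 fell of 31. CGAS and XAF1 did not pass the filter.

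**Figure D1:**
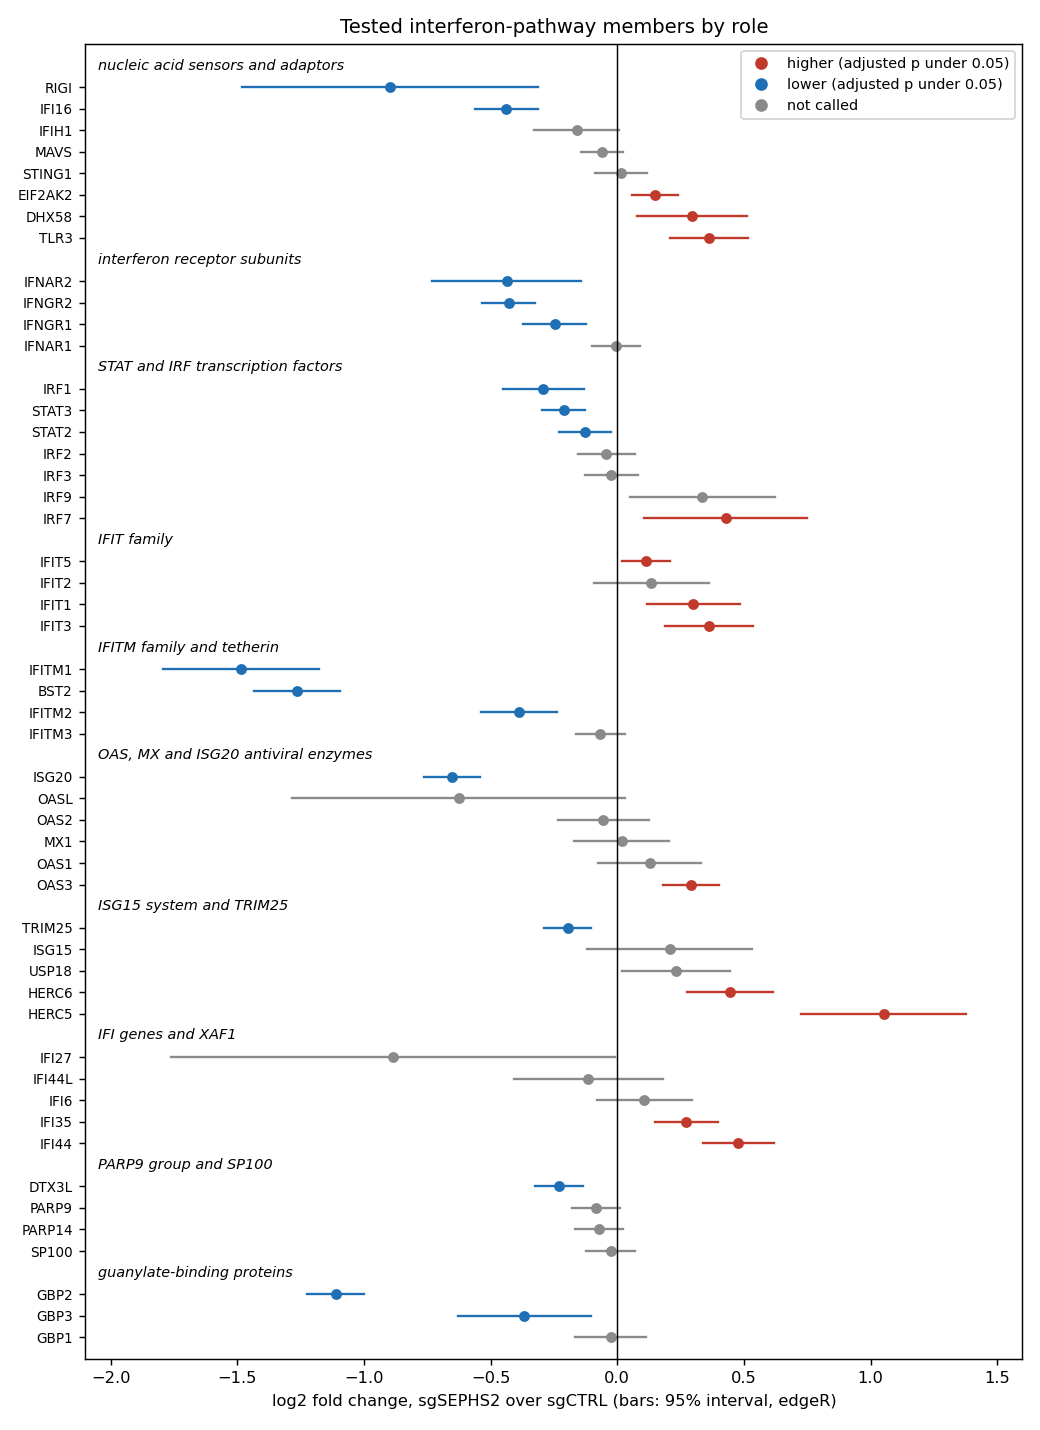
Log2 fold change of each of the 50 tested members (points) with its 95% interval from edgeR (bars), sgSEPHS2 over sgCTRL, grouped by role; red and blue mark the 12 higher and 16 lower calls at adjusted p under 0.05. The largest falls were IFITM1 at -1.49 and BST2 at -1.27, and the largest rise HERC5 at 1.05.

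Levels spread widely before any comparison. Per kilobase of exon, the control group means ran from 114 CPM per kb for IFITM3, a membrane protein that blocks virus entry, down to 0.0079 for CGAS. IFI16, STAT3, IFNGR2 and MAVS followed IFITM3 at 34.9, 21.9, 21.8 and 21.5 CPM per kb. Some effectors commonly used as read-outs of an interferon response were low on the same scale. ISG15 was at 3.16, IFIT1 at 2.42, MX1 at 1.19 and OAS1 at 1.44. Other effectors stood higher, among them BST2 at 15.9, IFI35 at 15.4, IFI6 at 10.1 and IFI44 at 9.58. Exon lengths are the union of annotated exons, so genes with long rarely used exons are placed too low.

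**Figure D2:**
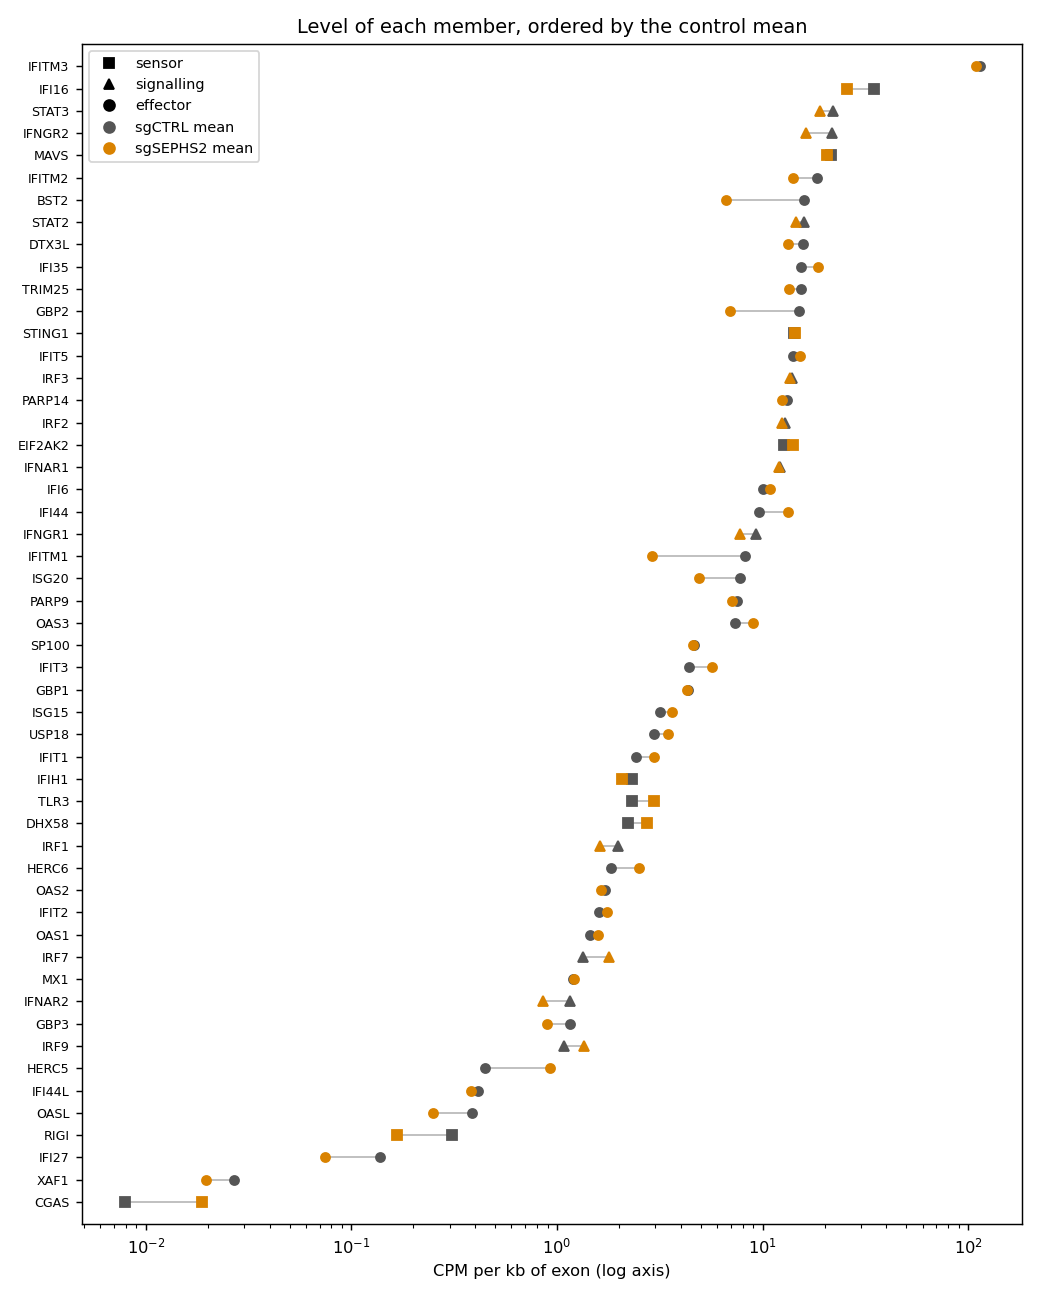
Mean level of all 52 members in CPM per kb of exon on a log axis, grey for sgCTRL and orange for sgSEPHS2, ordered by the control mean, with squares for sensors, triangles for signalling genes and circles for effectors. IFITM3 stands at 114 and 108 CPM per kb in the 2 groups and CGAS at 0.0079 and 0.0187.

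Among the sensors, the DNA-sensing arm had almost no CGAS mRNA and ample STING1. CGAS (chromosome 6, 73423711 to 73452297, GRCh38.p14) had 0, 2 and 2 reads in the sgCTRL libraries and 4, 5 and 0 in the sgSEPHS2 libraries. No difference was detectable at this depth. The ratio of summed reads was 2.36-fold, with an exact 95% conditional binomial interval of 0.658 to 10.5, which covers counting error only. STING1, the adaptor that cGAS products activate, was at 56.4, 54.4 and 53.9 CPM in the control libraries and 53.2, 58.3 and 54.9 CPM in the libraries labelled knockout, with overlapping groups (log2 change 0.016 ± 0.049 SE, edgeR adjusted p = 0.82) and a 95% interval of -0.086 to 0.12. IFI16 (chromosome 1, 158999976 to 159055151), a nuclear DNA-binding protein of the PYHIN family, was the most abundant sensor per kilobase and fell. It stood at 184, 178 and 192 CPM in the control libraries and 129, 125 and 155 CPM in the libraries labelled knockout (log2 change -0.44 ± 0.060 SE, edgeR adjusted p = 4.25e-06). Every control library lay above every library labelled knockout, and sgSEPHS2 replicate 3 came closest to the controls.

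The RNA sensors split. RIGI, the sensor of short RNA with a free 5′ triphosphate, was low and fell further, with 72, 48 and 46 reads in the sgCTRL libraries and 31, 26 and 27 in the sgSEPHS2 libraries (log2 change -0.90 ± 0.28 SE, edgeR adjusted p = 0.0125). Its call was lost without sgCTRL replicate 1 (log2 fold change -0.69, edgeR adjusted p = 0.0951) or sgSEPHS2 replicate 2 (adjusted p = 0.056). IFIH1, which encodes the long-RNA sensor MDA5, stood at 2.33 CPM per kb in the control group, beside 0.308 for RIGI. Its libraries were at 12, 11.6 and 12 CPM in the control libraries and 10.5, 10.3 and 11.1 CPM in the libraries labelled knockout, and its log2 fold change of -0.16 did not pass (edgeR adjusted p = 0.115) although the groups did not overlap. TLR3, the endosomal receptor for double-stranded RNA, rose from 15.5 ± 0.748 to 19.95 ± 1.8 CPM (SD, n = 3 per group; log2 change 0.36 ± 0.074 SE, edgeR adjusted p = 0.000378), with library values of 15.3, 16.3 and 14.9 CPM in the control group and 21.2, 17.9 and 20.7 in the other.

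DHX58 encodes LGP2, which tunes the other 2 helicases. It stood at 8.61, 8.65 and 8.29 CPM in the control libraries and 12.4, 9.66 and 9.43 CPM in the libraries labelled knockout (log2 change 0.30 ± 0.10 SE, edgeR adjusted p = 0.0242), and the first library labelled knockout lay above the rest. Without that library the log2 fold change was 0.16 (edgeR adjusted p = 0.194), and leaving out any control library also ended the call (adjusted p = 0.0546 to 0.0665). EIF2AK2, the kinase PKR that halts translation on double-stranded RNA, rose slightly, from 136 ± 3.73 to 152 ± 6.67 CPM (log2 change 0.15 ± 0.044 SE, edgeR adjusted p = 0.00735), with a call that ended without sgCTRL replicate 3 (adjusted p = 0.0512). MAVS, the mitochondrial adaptor of the RNA helicases, was abundant and close to level, at 254, 254 and 253 CPM in the control libraries and 244, 250.03 and 236 CPM in the libraries labelled knockout (log2 change -0.060 ± 0.040 SE, edgeR adjusted p = 0.238). With a smooth trend in gene length and GC content removed it turned to 0.10 (edgeR adjusted p = 0.035).

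Of the 4 receptor subunits, 3 were called lower, beside 23.4% of all genes tested: both for interferon gamma and IFNAR2 for type I interferon. IFNGR2 (chromosome 21, 33402882 to 33437516), the signalling subunit of the interferon gamma receptor, fell from 64.6 ± 3.01 to 48 ± 1.59 CPM (log2 change -0.43 ± 0.050 SE, edgeR adjusted p = 4.23e-07). Its libraries were at 61.3, 67.1 and 65.4 CPM in the control libraries and 46.4, 49.6 and 47.9 CPM in the libraries labelled knockout. IFNGR1, the ligand-binding subunit of the same receptor, fell as well, from 30.2 ± 0.612 to 25.4 ± 1.74 CPM (log2 change -0.25 ± 0.059 SE, edgeR adjusted p = 0.00175), with no overlap between groups. IFNAR2, a subunit of the type I receptor, was low at 5.43, 4.55 and 6.06 CPM in the control libraries and 3.25, 4.25 and 4.29 CPM in the libraries labelled knockout (log2 change -0.44 ± 0.14 SE, edgeR adjusted p = 0.0155). Its call was lost without sgCTRL replicate 3 or without sgSEPHS2 replicate 1 (edgeR adjusted p = 0.0897 and 0.0748). IFNAR1, the partner subunit, was at 77.4, 77.9 and 73.1 CPM in the control libraries and 74.9, 74 and 78.5 CPM in the libraries labelled knockout (log2 change -0.0067 ± 0.046 SE, edgeR adjusted p = 0.922), with a 95% interval of -0.10 to 0.088. IFNAR2, IFNAR1 and IFNGR2 lie in a cluster with IL10RB on chromosome 21 between 33229938 and 33437516, and the median change of other expressed genes within 5 Mb of IFNGR2 was 0.012. Exons of other annotated genes cover 39.1% (IL10RB-DT, opposite strand) and 44.2% (AP000295.1, same strand) of IFNAR2 and 12.8% of IFNGR2 (TMEM50B, opposite strand). The strand setting of the counting is not known, so reads in these parts could belong to either gene.

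The transcription factors changed little. STAT3, which answers cytokines of the interleukin 6 family and also interferon, was the highest of them per kilobase and fell, from 193 ± 6.37 to 167 ± 2.39 CPM (log2 change -0.21 ± 0.041 SE, edgeR adjusted p = 0.000228). IRF1, the factor induced by interferon gamma, fell from 15.4 ± 0.226 to 12.6 ± 0.959 CPM (log2 change -0.29 ± 0.076 SE, edgeR adjusted p = 0.00355); 22% of its exon bases overlap an antisense gene. STAT2, a part of the type I complex, stood at 98.7, 92.4 and 99.3 CPM in the control libraries and 82.6, 93.9 and 89.1 CPM in the libraries labelled knockout, where 1 library labelled knockout reached into the control range. It was called lower (log2 change -0.13 ± 0.049 SE, edgeR adjusted p = 0.0401), a call lost when any of 4 libraries was left out (sgCTRL replicate 1 or 3, sgSEPHS2 replicate 1 or 3, adjusted p = 0.0703 to 0.173) and with the length and GC trend removed (adjusted p = 0.229).

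Among the 7 STAT and IRF genes, 1 was called higher (14.3%, beside 22% of all genes tested) and 3 lower (42.9%, beside 23.4%). IRF7, the amplifier of type I interferon induction and itself interferon-induced, was low at 3.46, 2.66 and 4.36 CPM in the control libraries and 4.6, 5.01 and 4.47 CPM in the libraries labelled knockout (log2 change 0.43 ± 0.16 SE, edgeR adjusted p = 0.0294). The second control library was the lowest, and without it the log2 fold change was 0.27 (adjusted p = 0.178); the call also ended without sgCTRL replicate 1, without sgSEPHS2 replicate 2 and in DESeq2 (adjusted p = 0.0666 to 0.107). IRF9, the DNA-binding part of the type I complex, was at 3.73, 3.56 and 4.96 CPM in the control libraries and 5.21, 5.2 and 5.03 CPM in the libraries labelled knockout. It missed the threshold (log2 change 0.34 ± 0.14 SE, edgeR adjusted p = 0.0508) and passed with the replicate block (adjusted p = 0.044), with the trend removed (adjusted p = 0.0464) and without sgCTRL replicate 3 (log2 fold change 0.50, adjusted p = 0.0081). Another gene model overlaps 48.4% of its exon bases. IRF3, the factor that TBK1 phosphorylates downstream of STING and MAVS, and IRF2, a repressor at ISRE sites, had log2 fold changes of -0.024 and -0.043 (edgeR adjusted p = 0.735 and 0.554), with 95% intervals of -0.13 to 0.080 and -0.16 to 0.069.

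The strongest falls among the members were in membrane proteins that restrain enveloped viruses. IFITM1 (chromosome 11, 314040 to 315272), which acts at the cell surface, fell from a low level to 35.4% of the control mean: 7.24, 9.88 and 9.49 CPM in the control libraries and 2.43, 3.34 and 3.65 CPM in the libraries labelled knockout (log2 change -1.49 ± 0.15 SE, edgeR adjusted p = 4.37e-08). BST2 (chromosome 19, 17402939 to 17405630), the tetherin that holds budding virus particles on the cell, stood at 17, 18 and 18.3 CPM in the control libraries and 7.35, 7.89 and 6.93 CPM in the libraries labelled knockout (log2 change -1.27 ± 0.082 SE, edgeR adjusted p = 6.34e-11). The lowest control library was 1.98 times the highest library labelled knockout for IFITM1 and 2.16 times for BST2. IFITM2 fell less, from 28.4 ± 2.35 to 21.7 ± 2.08 CPM (log2 change -0.39 ± 0.072 SE, edgeR adjusted p = 0.00016). IFITM3, the most abundant of the family per kilobase, overlapped between groups at 148, 150.3 and 161 CPM in the control libraries and 139, 153 and 146 CPM in the libraries labelled knockout (log2 change -0.066 ± 0.046 SE, edgeR adjusted p = 0.261), and was called lower only with the length and GC trend removed (-0.16, adjusted p = 0.00315).

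The 3 IFITM genes lie within 307816 to 320860 on chromosome 11 and encode closely similar proteins. Annotated exons of IFITM1 and IFITM2 overlap over 351 bases, 32.5% of those of IFITM1. Reads may therefore be split between them in a way the table does not show, and their single values are uncertain. Other expressed genes within 5 Mb had a median log2 fold change of 0.014, and those around BST2 -0.020.

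**Figure D3:**
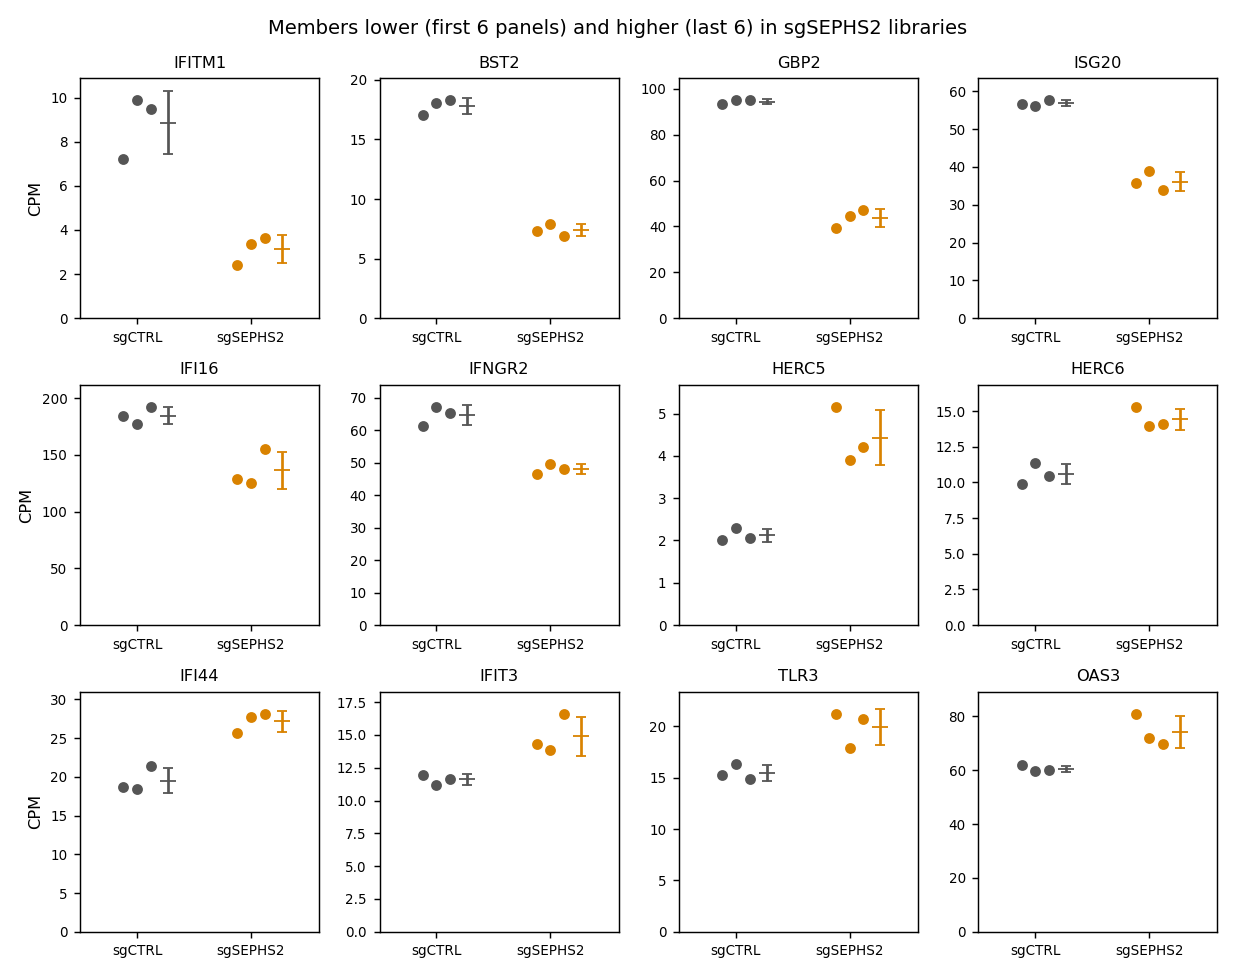
CPM in each library (points) with mean and SD (bars, n = 3) for 6 lower and 6 higher members, sgCTRL in grey and sgSEPHS2 in orange, each axis starting at 0. The 12 were picked with their values known, and in all of them the groups do not overlap. That holds for 35 of the 50 tested members and 52.1% of all genes tested. GBP2 goes from 94.4 ± 0.996 to 43.6 ± 3.96 CPM and HERC5 from 2.12 ± 0.154 to 4.42 ± 0.652 CPM.

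Guanylate-binding proteins, interferon-gamma-induced GTPases that attack intracellular microbes, followed with 2 of 3 lower, beside 23.4% of all genes tested. GBP2 (chromosome 1, 89106132 to 89126114) was at 93.3, 95 and 95 CPM in the control libraries and 39.2, 44.6 and 47 CPM in the libraries labelled knockout, a fall to 46.2% of the control mean (log2 change -1.11 ± 0.054 SE, edgeR adjusted p = 6.60e-13). GBP3 fell from a lower level, 4.95 ± 0.392 to 3.83 ± 0.0875 CPM (log2 change -0.37 ± 0.13 SE, edgeR adjusted p = 0.0213), and lost its call without sgCTRL replicate 1 (adjusted p = 0.0994), without sgSEPHS2 replicate 3 (adjusted p = 0.051) and in DESeq2 (adjusted p = 0.0553). GBP1 lies between them on chromosome 1 and stood at 20.1, 21.6 and 23.5 CPM in the control libraries and 22, 20.1 and 22 CPM in the libraries labelled knockout (log2 change -0.026 ± 0.067 SE, edgeR adjusted p = 0.789), with a 95% interval of -0.17 to 0.11. The family is closely related in sequence and its members share a cluster, with neighbours within 5 Mb at a median of 0.053.

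Of the IFIT genes, whose cap- and triphosphate-binding products block translation of viral RNA, 3 of 4 were called slightly higher (beside 22% of all genes tested), and IFIT3 alone of them kept its call under every alternative. IFIT3 was at 12, 11.2 and 11.7 CPM in the control libraries and 14.3, 13.8 and 16.6 CPM in the libraries labelled knockout (log2 change 0.36 ± 0.083 SE, edgeR adjusted p = 0.0012). IFIT1 was at 10.9, 10.4 and 12.2 CPM in the control libraries and 12.5, 15 and 13.6 CPM in the libraries labelled knockout (log2 change 0.30 ± 0.088 SE, edgeR adjusted p = 0.00809), and its call was lost without sgCTRL replicate 2 or without sgSEPHS2 replicate 2 (adjusted p = 0.0542 and 0.0718). IFIT5, the most abundant of the 4 per kilobase, rose from 56.5 ± 1.28 to 61.1 ± 0.485 CPM (log2 change 0.11 ± 0.045 SE, edgeR adjusted p = 0.044), a call that ended under every alternative tried except the replicate block, with adjusted p = 0.0563 to 0.712. IFIT2 had 0.13 (edgeR adjusted p = 0.34) and overlapping groups. All 4 lie within 89302046 to 89420997 on chromosome 10, where the neighbours of IFIT1 within 5 Mb had a median of 0.093.

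Of the OAS genes, whose products make the 2-5A messenger that activates RNase L, OAS3 rose, from 60.6 ± 1.15 to 74.3 ± 5.91 CPM (log2 change 0.29 ± 0.052 SE, edgeR adjusted p = 0.00011). The libraries were at 61.9, 59.7 and 60.2 CPM in the control libraries and 81, 71.9 and 69.9 CPM in the libraries labelled knockout, with the first library labelled knockout the highest. OAS1 and OAS2, on either side of OAS3 on chromosome 12, had 0.13 and -0.055 (edgeR adjusted p = 0.316 and 0.642), with 95% intervals of -0.077 to 0.33 and -0.23 to 0.12. OASL, an OAS-like protein that lies apart from them, had 68, 46 and 54 reads in the sgCTRL libraries and 21, 24 and 59 in the sgSEPHS2 libraries. Of the libraries labelled knockout, replicate 3 lay within the control range, and without it the log2 fold change went from -0.63 (edgeR adjusted p = 0.114) to -1.21 (adjusted p = 0.00375).

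MX1, a GTPase and a standard marker of type I interferon, stood at 9.54, 10.7 and 10.6 CPM in the control libraries and 11.3, 9.84 and 10.02 CPM in the libraries labelled knockout (log2 change 0.017 ± 0.090 SE, edgeR adjusted p = 0.896), with a 95% interval of -0.17 to 0.20. ISG20 (chromosome 15, 88635632 to 88656483), an exonuclease that degrades viral RNA, fell clearly. It was at 56.7, 56.2 and 57.6 CPM in the control libraries and 35.7, 38.8 and 33.9 CPM in the libraries labelled knockout (log2 change -0.65 ± 0.053 SE, edgeR adjusted p = 2.50e-09), with every library labelled knockout under every control library.

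The genes of the ISG15 route, which attaches the ubiquitin-like protein ISG15 to other proteins, diverged among themselves. ISG15 itself was low at 2.82, 3.22 and 2.88 CPM in the control libraries and 2.96, 3.23 and 4.1 CPM in the libraries labelled knockout and did not pass (log2 change 0.21 ± 0.16 SE, edgeR adjusted p = 0.306), with a 95% interval of -0.12 to 0.53. HERC5 (chromosome 4, 88457119 to 88506163), the main ISG15 ligase, had the largest rise of the members, at 2.02, 2.3 and 2.05 CPM in the control libraries and 5.15, 3.9 and 4.22 CPM in the libraries labelled knockout (log2 change 1.05 ± 0.16 SE, edgeR adjusted p = 1.11e-05). Its neighbour HERC6 (chromosome 4, 88378852 to 88443097) rose from 10.6 ± 0.726 to 14.4 ± 0.743 CPM (log2 change 0.45 ± 0.082 SE, edgeR adjusted p = 0.000133), and other expressed genes around the pair had a median of 0.030. USP18, which removes ISG15 and also dampens signalling at IFNAR2, was at 6.26, 6.37 and 6.31 CPM in the control libraries and 7.09, 7.59 and 7.55 CPM in the libraries labelled knockout; its groups did not overlap, but the log2 fold change of 0.23 did not pass (edgeR adjusted p = 0.0716).

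TRIM25, a ubiquitin and ISG15 ligase that modifies RIG-I, fell from 146 ± 6.57 to 127 ± 5.13 CPM (log2 change -0.20 ± 0.045 SE, edgeR adjusted p = 0.00127), a call lost with the length and GC trend removed (-0.074, adjusted p = 0.148). From outside the members, UBA7, the enzyme that activates ISG15, fell from 19.1 ± 1.22 to 8.91 ± 0.037 CPM (log2 change -1.10 ± 0.077 SE, edgeR adjusted p = 1.98e-10). UBE2L6, its conjugating enzyme, stood at 53.7, 59.4 and 58.5 CPM in the control libraries and 59.1, 58.5 and 57 CPM in the libraries labelled knockout (log2 change 0.026 ± 0.049 SE, edgeR adjusted p = 0.708); it was named after its value was seen, to complete the route.

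**Figure D4:**
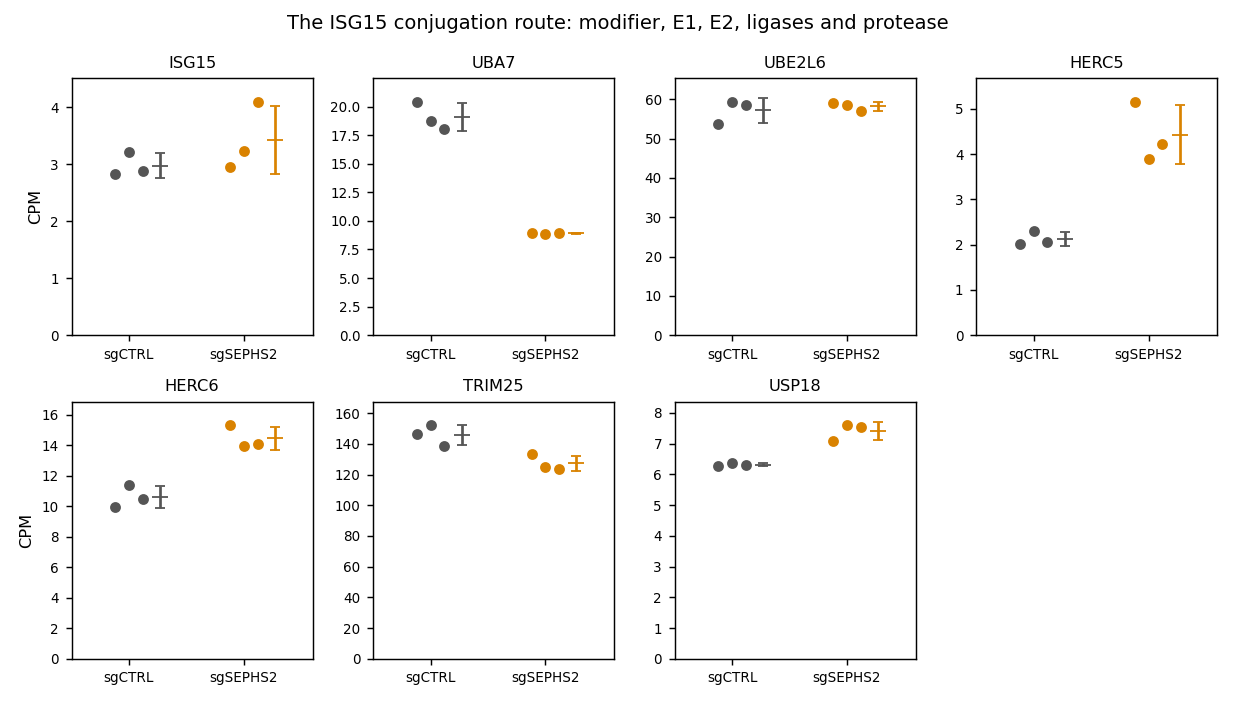
CPM per library (points) with mean and SD (bars, n = 3), sgCTRL in grey and sgSEPHS2 in orange. Shown are ISG15, its activating (UBA7) and conjugating (UBE2L6) enzymes, the ligases HERC5 and TRIM25, the HERC5 neighbour HERC6 and the protease USP18. UBA7 goes from 19.1 ± 1.22 to 8.91 ± 0.037 CPM and HERC5 from 2.12 ± 0.154 to 4.42 ± 0.652 CPM, while ISG15 overlaps between groups.

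Of the 5 other IFI genes tested, 2 rose (40%, beside 22% of all genes tested). IFI44, a protein of uncertain biochemical role, rose from 19.5 ± 1.65 to 27.1 ± 1.35 CPM (log2 change 0.48 ± 0.067 SE, edgeR adjusted p = 5.23e-06), in a stretch of chromosome 1 where the other expressed genes within 5 Mb also had a positive median of 0.26; its part in the rise was not tested. Its neighbour IFI44L, in the same stretch, had -0.11 (edgeR adjusted p = 0.548) at 4.23 and 3.9 CPM as group means. IFI35, a partner of NMI, rose from 30.4 ± 1.23 to 36.8 ± 2.83 CPM (log2 change 0.27 ± 0.060 SE, edgeR adjusted p = 0.000831). IFI6, a mitochondrial and endoplasmic reticulum protein, was at 9.09, 8.6 and 8.49 CPM in the control libraries and 9.11, 9.89 and 9.18 CPM in the libraries labelled knockout and did not pass (log2 change 0.11 ± 0.091 SE, edgeR adjusted p = 0.364).

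IFI27 had 25, 15 and 30 reads in the sgCTRL libraries and 12, 15 and 9 in the sgSEPHS2 libraries, too few for its log2 fold change of -0.89 to pass (edgeR adjusted p = 0.0946). XAF1, a pro-apoptotic interferon target, had 7, 8 and 7 reads in the sgCTRL libraries and 6, 6 and 3 in the sgSEPHS2 libraries and was not tested. Its ratio of summed reads was 0.714-fold, with an exact 95% conditional binomial interval of 0.345 to 1.44, so no difference was detectable at this depth.

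Of the 4 genes of the PARP9 group with SP100, DTX3L alone passed and was lower (25%, beside 23.4% of all genes tested). DTX3L, a ubiquitin ligase, works in a complex with PARP9 and shares a head-to-head promoter region with it on chromosome 3. DTX3L was at 93, 91.1 and 91.1 CPM in the control libraries and 81.6, 73.9 and 79.5 CPM in the libraries labelled knockout (log2 change -0.23 ± 0.046 SE, edgeR adjusted p = 0.000324). PARP9 was at 69.7, 65.6 and 66.8 CPM in the control libraries and 63, 63.9 and 63.8 CPM in the libraries labelled knockout (log2 change -0.083 ± 0.045 SE, edgeR adjusted p = 0.144), also without overlap. PARP14, a mono-ADP-ribosyltransferase next to them, and SP100, a nuclear body protein, had -0.071 and -0.025 (edgeR adjusted p = 0.219 and 0.692), with overlapping groups and 95% intervals of -0.17 to 0.023 and -0.12 to 0.070.

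Promoter sequence was read because members moved in both directions. RefSeq windows of 300 bases, 250 before the start and 50 after it, were available for 39 members on GRCh38.p14. The other 13 had no window and were not searched: CGAS, DHX58, GBP2, IFIT2, IFITM2, IFNAR2, IRF2, IRF3, IRF7, OAS2, OASL, STING1 and USP18. ISRE was searched on both strands as GAAA, any 2 bases (NN) and GAAA again, and a gene counted once if any of its windows held a match. It occurred in 23 of the 39 members (59%), beside 1195 of 27305 genes with a window (4.38%). By call, 8 of 10 members that rose held it (EIF2AK2, TLR3, IFI44, HERC5, IFIT1, IFIT3, IFIT5 and OAS3, not HERC6 or IFI35), 5 of 13 that fell (IFITM1, BST2, ISG20, DTX3L and GBP3) and 10 of 15 that did not pass. Over all tested genes the shares were 3.84% of those higher, 4.86% of those lower and 3.97% of those not called. None of 7 signalling members with a window held the letters, against 20 of 26 effectors. The shares by call are mixed with class, since IFNGR1, IFNGR2, STAT2, STAT3 and IRF1, all signalling genes, were among the 13 that fell. Among effectors with a window, all that fell except TRIM25 and all that rose except HERC6 and IFI35 held an ISRE match. The gamma-activated site, searched as TTCNNNGAA, occurred in 11 of 39 members (28.2%), beside 9.38% of genes: 2 of 10 that rose, 4 of 13 that fell and 5 of 15 that did not pass. A match is a description of letters, not evidence of binding.

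**Figure D5:**
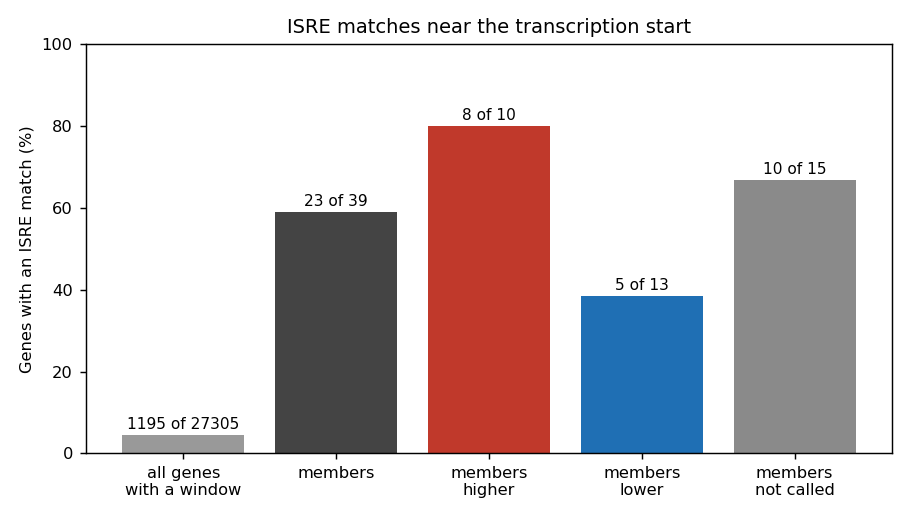
Percent of genes whose 300-base window holds an ISRE match on either strand (bars, with the number of genes above), for all genes with a window, all members and members by call. The share is 80% of members that rose, 38.5% of those that fell and 66.7% of those that did not pass. These shares are mixed with class, since those that fell include signalling genes, of which 0 of 7 with a window hold a match. The 39 members include XAF1, which was not tested.

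Sequences just upstream of the start are shown 5′ to 3′ on the gene's strand for 5 members that rose and for ISG15, which did not pass. Since both directions carry the motif, the 3 largest falls that hold it among the members searched are also shown. GBP2 (-1.11) had no window. Capitals mark complete ISRE matches, each stretch ends at the base before the start, and all are GRCh38.p14 from RefSeq. The members that rose are IFIT1 (chr10:89392498-89392622, plus strand), IFIT3 (chr10:89327832-89327996, plus strand), HERC5 (chr4:88456985-88457118, plus strand), IFI44 (chr1:78649762-78649788, plus strand) and OAS3 (chr12:112938322-112938473, plus strand); ISG15 is at chr1:1013375-1013496, plus strand; those that fell are BST2 (chr19:17405631-17405769, minus strand), ISG20 (chr15:88638938-88639015, plus strand) and IFITM1 (chr11:313991-314039, plus strand).
IFIT1: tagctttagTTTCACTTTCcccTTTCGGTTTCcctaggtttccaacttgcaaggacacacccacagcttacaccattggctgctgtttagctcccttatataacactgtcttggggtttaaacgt
IFIT3: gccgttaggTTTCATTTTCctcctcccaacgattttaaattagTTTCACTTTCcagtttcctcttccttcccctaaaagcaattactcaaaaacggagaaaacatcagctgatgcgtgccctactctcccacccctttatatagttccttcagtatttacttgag
HERC5: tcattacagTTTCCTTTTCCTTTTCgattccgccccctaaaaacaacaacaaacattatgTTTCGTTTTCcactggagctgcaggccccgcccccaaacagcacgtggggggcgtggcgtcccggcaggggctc
IFI44: cacactgagTTTCAGTTTCctttctct
OAS3: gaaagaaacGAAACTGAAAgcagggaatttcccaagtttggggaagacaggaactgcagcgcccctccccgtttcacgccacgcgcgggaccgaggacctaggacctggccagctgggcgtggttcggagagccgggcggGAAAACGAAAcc
ISG15: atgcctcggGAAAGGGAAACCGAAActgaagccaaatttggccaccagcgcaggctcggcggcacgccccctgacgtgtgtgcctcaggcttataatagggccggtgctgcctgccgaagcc
BST2: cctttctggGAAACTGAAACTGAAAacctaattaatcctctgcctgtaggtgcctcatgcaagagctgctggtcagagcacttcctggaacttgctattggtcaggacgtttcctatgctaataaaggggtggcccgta
ISG20: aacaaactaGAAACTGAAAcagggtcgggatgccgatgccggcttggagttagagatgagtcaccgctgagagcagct
IFITM1: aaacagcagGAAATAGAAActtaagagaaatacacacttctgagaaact

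In the stretches of IFIT1, IFIT3, HERC5 and IFI44 the matches run on the reverse strand, and in OAS3, ISG15, BST2, ISG20 and IFITM1 on the forward one. Genes with several annotated starts have several windows, and the stretch shown for ISG20 ends at a start inside the gene's full span. BST2 (-1.27) and ISG15 (0.21) each hold 2 overlapping forward matches about the same distance before the start, and their changes differ. IFITM1 has a further match across its start, from base -6 to base 3 counted with the first transcribed base as 0, of which the printed part shows only the first bases.

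Other genes of the pathway showed a similar mixture. Of 23 tested genes of sensing and adaptors outside the members, 7 rose (30.4%, beside 22% of all genes tested) and 9 fell (39.1%, beside 23.4%), with a median log2 fold change of -0.039, beside 0.0051 over all genes. AIM2, the inflammasome DNA sensor, fell from 17.1 ± 1.57 to 9.63 ± 1.25 CPM (log2 change -0.82 ± 0.094 SE, edgeR adjusted p = 3.32e-07), and TRAF3, a ligase downstream of MAVS and TRIF, from 50.4 ± 3.17 to 37.7 ± 0.762 CPM (log2 change -0.42 ± 0.054 SE, edgeR adjusted p = 1.73e-06). PQBP1, a co-sensor for cGAS, rose by 0.32 (edgeR adjusted p = 1.86e-05) and RNF125, a ligase that degrades RIG-I, by 0.37 (edgeR adjusted p = 2.54e-06). Of the interferon ligands looked up, IFNE alone was analysed here, and it fell from 3.19 ± 0.428 to 2.15 ± 0.165 CPM (log2 change -0.57 ± 0.16 SE, edgeR adjusted p = 0.00687); IFNB1, IFNG and the other 6 were not analysed here. IFNE encodes an interferon typical of epithelia.

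Of the other JAK, STAT, IRF and feedback genes, SOCS3 and PTPN2 had the smallest adjusted p-values. SOCS3, the inhibitor of cytokine receptors that STAT3 induces, fell from 51.4 ± 0.697 to 24.1 ± 1.84 CPM (log2 change -1.09 ± 0.057 SE, edgeR adjusted p = 1.99e-12). PTPN2, a phosphatase that removes phosphate from JAK1, rose from 39.2 ± 0.924 to 78.1 ± 0.86 CPM (log2 change 1.00 ± 0.046 SE, edgeR adjusted p = 2.82e-13). PTPN2 lies on chromosome 18 among 29 expressed genes within 5 Mb whose median was also 0.95; the part of the region in its rise was not tested. No member lies on chromosome 18. Of 18 tested genes of this list 1 rose (5.56%, beside 22% of all genes tested) and 6 fell (33.3%, beside 23.4%), with a median log2 fold change of -0.059; those that fell include STAT5B (-0.29, edgeR adjusted p = 1.60e-05) and IRF2BPL, a corepressor family gene (-0.52, edgeR adjusted p = 2.75e-09).

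A further list of 54 tested interferon-stimulated genes had 18 higher (33.3%, beside 22% of all genes tested) and 14 lower (25.9%, beside 23.4%), with a median log2 fold change of 0.048. At least 2-fold lower were 4 (EPSTI1, CXCL10, RSAD2 and UBA7), beside 5.67% of all genes tested, and 0 were at least 2-fold higher, beside 1.25%. EPSTI1 and RSAD2 had few reads, 46 and 42 summed over the control libraries. APOBEC3G, a cytidine deaminase that mutates retroviral DNA, rose from 29 ± 0.494 to 55.2 ± 4.07 CPM (log2 change 0.92 ± 0.056 SE, edgeR adjusted p = 2.33e-11), and APOBEC3B of the same gene cluster from 13 ± 1.02 to 21.4 ± 0.874 CPM (log2 change 0.72 ± 0.071 SE, edgeR adjusted p = 4.19e-08). SLFN5, a Schlafen family gene, fell from 154 ± 2.48 to 111 ± 4.19 CPM (log2 change -0.48 ± 0.042 SE, edgeR adjusted p = 9.09e-09). The APOBEC3 genes are near-identical in parts, so their single counts are uncertain.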

How the data were processed

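RNA from 6 libraries of A-375 cells, 3 per guide, was analysed from the deposited table, in which the authors give unnormalized counts for each gene symbol. The submitters' processing notes name HISAT2 2.2.1 and featureCounts 2.0.6, with build GRCh38. How strand and multi-mapped reads were treated, and the annotation, is not given in the sources used here. Groups came from the sample titles. The members and gene lists were chosen with earlier results of these data known, and the named pathway genes are the up to 4 of each list with the smallest adjusted p.

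Counts were tested with edgeR 4.0.16 in R 4.3.3 (TMM, default filter with the group, two-sided quasi-likelihood test, Benjamini-Hochberg over 16910 genes, called under 0.05). Adjusted p-values are from this fit where no other is named. CPM used TMM-scaled library sizes and is given per library in replicate order. The tested alternatives were RLE factors, no filter, at least 1 CPM in 3 libraries, DESeq2 1.42.0, the replicate number as a block and each library left out; a fit with offsets for each library's smooth dependence on gene length and base composition (GC), chosen after seeing the data, covered 94.4% of tested genes. Exon lengths came from GENCODE v29 (GRCh38), positions from RefSeq GRCh38.p14. Neighbour medians took tested genes averaging 1 CPM or more, members left out. On simulated counts for this comparison over 16910 genes, with 50 genes changed at each size, 42% of 1.2-fold, 62% of 1.5-fold, 86% of 2-fold and 94% of 4-fold changes were recovered. The changed genes were drawn at random from all levels and were far fewer than the 7673 called in the data. The adjustment of p-values depends on that number, so these shares need not hold for the data or the members. Intervals on reads cover counting error only, because PCR copies are not marked by molecular identifiers.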

Additional observations from a re-analysis of the deposited data

How the results depend on the processing

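Of the 28 called members, 18 kept call and direction under every alternative that tested them, 7 higher (TLR3, IFIT3, OAS3, HERC5, HERC6, IFI35 and IFI44) and 11 lower (IFI16, IFNGR1, IFNGR2, STAT3, IRF1, IFITM1, IFITM2, BST2, ISG20, DTX3L and GBP2). The other 10 lost the call at least once. Members called numbered 8 to 13 higher and 13 to 16 lower over all alternatives. Counts for all genes and for the other pathway genes stayed within 1.5 times in each direction. With the replicate block, 13 members were higher and 16 lower; IRF9 gained its call and no other member's call changed. Same-numbered libraries had correlations of deviations from the group mean of 0.01, -0.09 and -0.25, beside -0.25 to 0.30 for differently numbered ones. Deviations within a group of 3 libraries constrain each other, so these values cannot decide whether the numbers pair the samples. Members with changes near 0 turned sign without a call: with the length and GC trend removed IFI6 went to -0.026, IRF3 to 0.014, PARP14 to 0.0079 and SP100 to 0.083, and MAVS to 0.10 with a call (edgeR adjusted p = 0.035); the cause was not tested. With 1 library left out, the log2 fold change ranged from -0.082 to 0.030 for GBP1, -0.039 to 0.012 for IFNAR1, -0.060 to 0.0065 for IRF3, -0.045 to 0.057 for MX1 and -0.021 to 0.045 for STING1. Of the 22 members not called, 18 had 95% intervals within 0.5 of 0 on the log2 scale. Those of IFI27, IRF9, ISG15 and OASL reached further. The intervals of IRF9 (0.051 to 0.62) and USP18 (0.018 to 0.45) lay above 0, and that of IFI27 (-1.76 to -0.0081) below 0. These intervals are not adjusted for the number of genes tested.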

Other observations

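Besides APOBEC3G and APOBEC3B, 2 more genes of the APOBEC3 cluster on chromosome 22 were higher; they were picked after their values were seen. APOBEC3C was at 41.8, 43.2 and 41.5 CPM in the control libraries and 61.4, 59.4 and 55.5 CPM in the libraries labelled knockout (log2 change 0.48 ± 0.051 SE, edgeR adjusted p = 1.12e-07). APOBEC3F was at 15, 14.1 and 15.4 CPM in the control libraries and 20.5, 21.1 and 21.1 CPM in the libraries labelled knockout (log2 change 0.49 ± 0.065 SE, edgeR adjusted p = 2.18e-06). For both, every library labelled knockout lay above every control library, while 117 other expressed genes within 5 Mb had a median log2 fold change of 0.045. CXCL10, a chemokine induced by interferon gamma and by NF-kB and also picked after its value was seen, had 66, 41 and 72 reads in the sgCTRL libraries and 13, 30 and 10 in the sgSEPHS2 libraries (log2 change -1.70 ± 0.35 SE, edgeR adjusted p = 0.00045).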
